A study of Mus musculus with 20 samples.

Results

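The genes described here are 9 genes characteristic of the choroid plexus epithelium: Ttr, Kl, Folr1, Clic6, Otx2, Aqp1, Slc4a5, F5 and Enpp2. They were taken by gene name from a table of 25190 genes, in which each name occurred once, and they were followed in all 20 hippocampal libraries. All mice were 4 months old male wild-type C57BL/6JOlaHsd mice with cannulas implanted in CA1 of the dorsal hippocampus, and tissue was taken 24 hours after the last behavioural test. The 5 Vehicle mice were infused with artificial cerebrospinal fluid, the 5 Control mice with small RNAs (sRNAs) pooled from the hippocampus of control individuals, and the 5 Pool 1 and 5 Pool 2 mice with sRNAs pooled from separate cohorts of patients with schizophrenia. Each sRNA preparation was a single pool, so mice of a group share 1 human preparation and are replicates of the mouse, not of the donors. The sample labels name hippocampal tissue, whereas the series text names CA1 tissue.

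The choroid plexus is a secretory tissue that floats in the brain ventricles. Its epithelial cells make cerebrospinal fluid by moving ions and water from the blood side to the ventricle, and they secrete carrier proteins into that fluid. It is not part of the hippocampus, although a strip of it lies in the lateral ventricle beside the hippocampus. The members cover these tasks: Ttr encodes transthyretin, the carrier of thyroid hormone and retinol-binding protein, Enpp2 encodes autotaxin, a secreted enzyme that makes lysophosphatidic acid, and F5 encodes coagulation factor V. Kl encodes klotho, a co-receptor for FGF23. Folr1 encodes the folate receptor alpha, Aqp1 a water channel, Slc4a5 a sodium bicarbonate cotransporter and Clic6 a protein of the chloride intracellular channel family. Otx2 encodes a homeodomain transcription factor that choroid plexus cells need to form and to be kept.

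Among the members, Otx2 encodes a DNA-binding factor whose homeodomain recognises the core TAATCC, so promoter windows of the members were searched for this core on both strands (TAATCC and its complement GGATTA). The windows came from RefSeq on GRCm38.p6 and run from 250 bases before to 50 bases after a start site. They were found for 5 of the 9 members (Kl, Otx2, Aqp1, Slc4a5 and F5), with 8 windows in all, and Ttr, Folr1, Clic6 and Enpp2 had none. The core was in 1 of the 8 windows, a window of Otx2 itself, against 7.06% of the 32851 windows of all genes. There the core, printed in capitals, begins at position -211 relative to the start site. It stands beside the windows of F5 and Slc4a5, which hold no match and belong to members that followed Ttr closely across mice.
Otx2, chr14:48665060-48665359, minus strand: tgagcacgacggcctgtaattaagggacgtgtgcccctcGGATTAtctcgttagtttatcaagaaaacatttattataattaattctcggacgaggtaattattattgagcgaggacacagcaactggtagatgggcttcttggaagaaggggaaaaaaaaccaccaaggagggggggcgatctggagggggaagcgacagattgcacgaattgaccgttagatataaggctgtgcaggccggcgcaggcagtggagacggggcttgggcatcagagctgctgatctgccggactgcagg
F5, chr1:164151585-164151884, plus strand: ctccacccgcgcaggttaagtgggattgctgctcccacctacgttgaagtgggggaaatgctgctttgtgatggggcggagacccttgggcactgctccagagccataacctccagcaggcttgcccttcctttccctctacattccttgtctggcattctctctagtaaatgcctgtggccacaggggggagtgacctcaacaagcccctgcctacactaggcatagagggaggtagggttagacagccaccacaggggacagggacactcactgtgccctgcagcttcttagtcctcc
Slc4a5, chr6:83237125-83237424, plus strand: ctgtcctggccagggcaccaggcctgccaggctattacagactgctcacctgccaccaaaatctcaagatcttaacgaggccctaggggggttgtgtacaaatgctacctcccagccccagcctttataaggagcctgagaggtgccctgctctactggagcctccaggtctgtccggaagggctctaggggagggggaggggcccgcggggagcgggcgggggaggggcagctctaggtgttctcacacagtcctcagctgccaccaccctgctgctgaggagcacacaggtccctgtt
A match of these letters is a description of the sequence, and binding was not measured.

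Libraries held 20588280 to 25543939 counts, so the 3 counts taken as the floor of detection correspond to 0.117 to 0.146 CPM, the unit used for levels: the counts of a gene as a share of the library total, adjusted with TMM factors. All 9 members lay above that floor in every library: the lowest count of any member was 7, for Slc4a5 in Pool 1 replicate 1, and the highest was 189838, for Ttr in Vehicle replicate 4.

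1 mouse stood apart. In Vehicle replicate 4 all 9 members had their highest level of the 20 mice, and together they took 1.23% of its counts, against 0.0247% to 0.339% in the other mice. The summed level of the members was 12568 CPM in that mouse, and the median of the 20 mice was 479 CPM. Control replicate 3 followed at 3417 CPM and was among the 3 highest mice for 9 of 9 members. Pool 2 replicate 3, at 2243 CPM, was among the 5 highest for 8 of 9 members, and Vehicle replicates 1 and 2, at 1475 and 1994 CPM, for all 9. No Pool 1 mouse was among the 5 highest for any member. The high mice thus came from 3 of the 4 groups, and in each of them most members were high together.

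**Figure D1:**
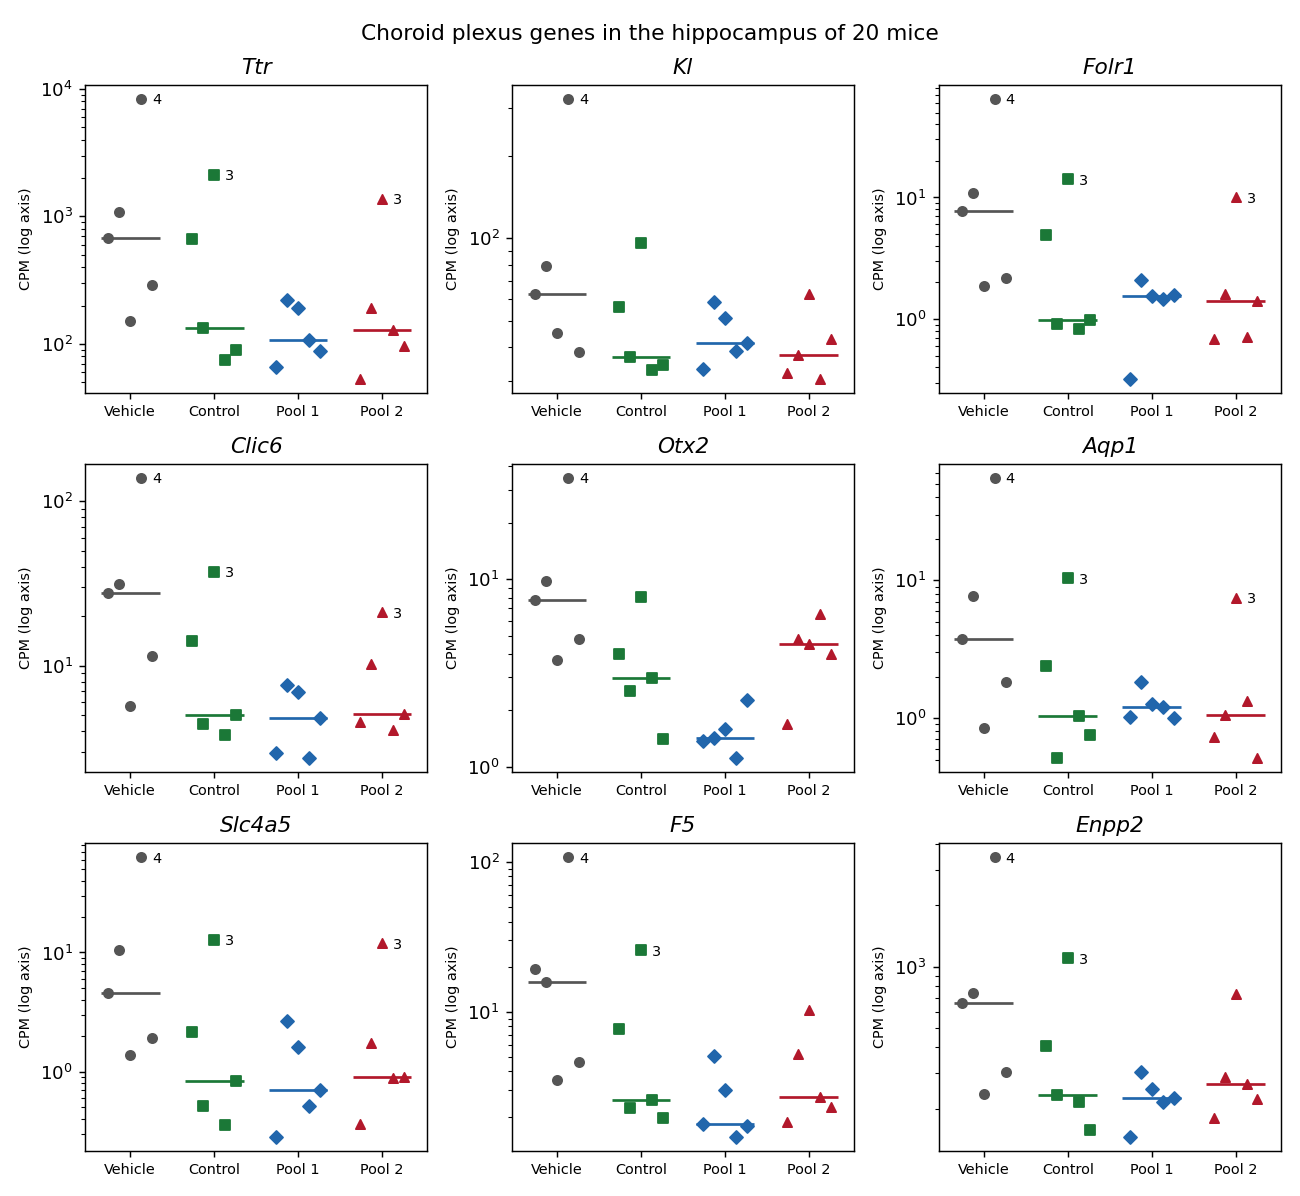
Level of each gene (CPM, log axis) in the 20 mice. Each point is 1 mouse, placed left to right by replicate number within its group, horizontal lines are group medians, and a number marks the replicate of a group's highest mouse where it is over 4 times the group median. Vehicle replicate 4 is the highest mouse in all 9 panels.

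Among the secreted proteins, Ttr had the widest span. In the Vehicle mice, replicates 1 to 5 had 680, 1089, 152, 8330 and 292 CPM of Ttr. In the Control mice they had 667, 135, 2114, 75.02 and 89.3 CPM. Vehicle replicate 4 was thus 12.2 times its group's median of 680 CPM, and Control replicate 3 was 15.7 times its group's median of 135 CPM. The Pool 1 mice had 66.4, 222, 191, 108 and 88.9 CPM of Ttr, and the Pool 2 mice had 53.6, 193, 1379, 128 and 96.8 CPM. The lower mice of all 4 groups overlapped, and Pool 1 was the only group without a mouse above 222 CPM. The highest and the lowest mouse differed 155-fold, and 39.4-fold without Vehicle replicate 4.

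Enpp2 followed the same mice over a narrower span. Its levels were 661, 740, 237, 3452 and 302 CPM in the Vehicle mice and 404, 234, 1099, 217 and 158 CPM in the Control mice. They lay between 145 and 302 CPM in the Pool 1 mice and between 179 and 736 CPM in the Pool 2 mice. No mouse had fewer than 3565 counts of Enpp2, and its highest CPM was 23.8 times its lowest, that of Pool 1 replicate 1. F5 went from 3.51 to 107 CPM in the Vehicle mice, from 1.95 to 25.7 CPM in the Control mice, from 1.47 to 5.11 CPM in the Pool 1 mice and from 1.83 to 10.3 CPM in the Pool 2 mice. For F5 too, the highest mice of the first, second and last of these groups were Vehicle replicate 4, Control replicate 3 and Pool 2 replicate 3.

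Kl, the klotho gene, varied least. It had 62.7, 79.4, 45.1, 324 and 38.3 CPM in the Vehicle mice and 56.1, 36.9, 96.1, 33.1 and 34.4 CPM in the Control mice. The Pool 1 mice lay between 33.3 and 58.7 CPM and the Pool 2 mice between 30.7 and 62.5 CPM. Apart from Vehicle replicate 4 the mice spanned 3.13-fold, and the 4 groups overlapped.

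The genes of transport had low levels in most mice and levels many times higher in a few. Folr1 had 7.71, 10.8, 1.86, 64.7 and 2.19 CPM in the Vehicle mice, and 4.87, 0.912, 14.1, 0.835 and 0.973 CPM in the Control mice. In the Pool 1 mice it lay between 0.324 and 2.11 CPM, and in the Pool 2 mice 4 lay between 0.686 and 1.60 CPM with replicate 3 at 10.04 CPM. The 4 lower Pool 2 mice were inside the Pool 1 range. Aqp1, the water channel, had 55.2 CPM in Vehicle replicate 4, 10.4 CPM in Control replicate 3 and 7.50 CPM in Pool 2 replicate 3, against a median of 1.23 CPM over all mice. Slc4a5, the bicarbonate transporter, had 63.0, 12.8 and 12.0 CPM in these 3 mice against a median of 1.49 CPM, and its 222-fold span was the widest of the members. Clic6 had 138, 37.1 and 21.2 CPM in them, against a median of 6.30 CPM.

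Otx2, the transcription factor, gave a different order of mice. It had 7.79, 9.78, 3.71, 34.7 and 4.79 CPM in the Vehicle mice and 3.98, 2.54, 8.06, 2.98 and 1.42 CPM in the Control mice. The Pool 1 mice had 1.38, 1.43, 1.60, 1.12 and 2.28 CPM and the Pool 2 mice 1.69, 4.79, 4.54, 6.55 and 3.99 CPM. All 5 Pool 1 mice were below all 5 Vehicle mice, and 4 of the 5 Pool 2 mice were above every Pool 1 mouse. In Pool 2 the highest mouse was replicate 4, whose Ttr was only 128 CPM. The exons of Otx2 share 168 bases with Gm49154 on the same strand and 154 bases with Otx2os1 on the other strand, and the strand setting of the counts is not given in the sources used here, so some counts may belong to these neighbours. The same holds for F5, with 262 bases shared with Gm16548, and Enpp2, with 345 bases shared with Gm26684, both on the other strand.

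Per kilobase of exon, the median level over the 20 mice was highest for Ttr (144 CPM per kb) and Enpp2 (44.5 CPM per kb), followed by Kl (4.501), Clic6 (1.61), Otx2 (0.911), Folr1 (0.691), Aqp1 (0.470), F5 (0.439) and Slc4a5 (0.256). The ranges of each pair of neighbours in this order overlapped over the mice. In Vehicle replicate 4 the order changed, with Ttr at 7023 CPM per kb, Enpp2 at 597, Clic6 at 35.3, Kl at 34.7, Folr1 at 28.2, Aqp1 at 21.01, F5 at 14.46, Slc4a5 at 10.8 and Otx2 at 8.21. Kl and Otx2 thus fell behind genes that they exceeded at the median.

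Against the 16644 genes averaging 10 or more normalized counts, the members were among the most variable. Their standard deviation (SD) of log2 CPM over the 20 mice ranked 6 for Slc4a5, 7 for Ttr, 15 for Folr1, 26 for Aqp1, 28 for F5, 50 for Clic6, 121 for Otx2, 151 for Enpp2 and 478 for Kl. The SD was 1.94 for Ttr and 0.78 for Kl, and the median over all these genes was 0.22. For every member but Otx2, most of this spread lay between mice of the same group. The share of the variance of log2 CPM that lay between groups was 55.9% for Otx2, and from 22.8% (Aqp1) to 36.9% (Clic6) for the 8 others.

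The members varied together. With log2 CPM of Ttr, the Pearson correlation over the 20 mice was 0.974 for Enpp2, 0.972 for Slc4a5, 0.971 for Folr1, 0.965 for Clic6, 0.964 for F5, 0.953 for Aqp1, 0.909 for Kl and 0.811 for Otx2, and Spearman's rho lay between 0.714 for Otx2 and 0.961 for Enpp2. Without Vehicle replicate 4 and Control replicate 3, the mice farthest from the median of Ttr, Pearson's r was between 0.642 for Otx2 and 0.957 for Enpp2. These are descriptions over 20 libraries in which both genes of a pair share the library, its total and its normalization. After subtraction of the group means r over the 20 mice was 0.795 for Otx2 and between 0.902 and 0.973 for the other members. The members thus also moved together within groups, with the deviations of all groups pooled and the high mice included. Correlations in each single group are not given here.

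The ratios of the members separated those that kept pace with Ttr from those that did not. Per 1000 counts of Ttr, Folr1 stayed between 4.88 and 17.7 counts over the 20 mice, Slc4a5 between 3.22 and 11.9 counts and Aqp1 between 3.55 and 15.2 counts. These ratios moved 3.64-fold to 4.29-fold, while Ttr itself moved 155-fold. Kl went from 38.8 counts per 1000 Ttr counts in Vehicle replicate 4 to 599 in Pool 2 replicate 1, the mouse with the lowest Ttr. Enpp2 went from 414 to 3339 in the same 2 mice, and Otx2 from 3.29 in Pool 2 replicate 3 to 51.1 in Pool 2 replicate 4. A straight line of CPM against Ttr CPM, fitted over the 20 mice, put Kl at 34.1 CPM, Enpp2 at 197 CPM and Otx2 at 2.37 CPM where Ttr would be 0, and Folr1 at 0.318 CPM. With Vehicle replicate 4 left out, these values were 36.2, 177, 2.65 and 0.519 CPM. Kl and Enpp2 are also known in neurons and oligodendrocytes, respectively, but the cells that carried their counts were not measured here.

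**Figure D2:**
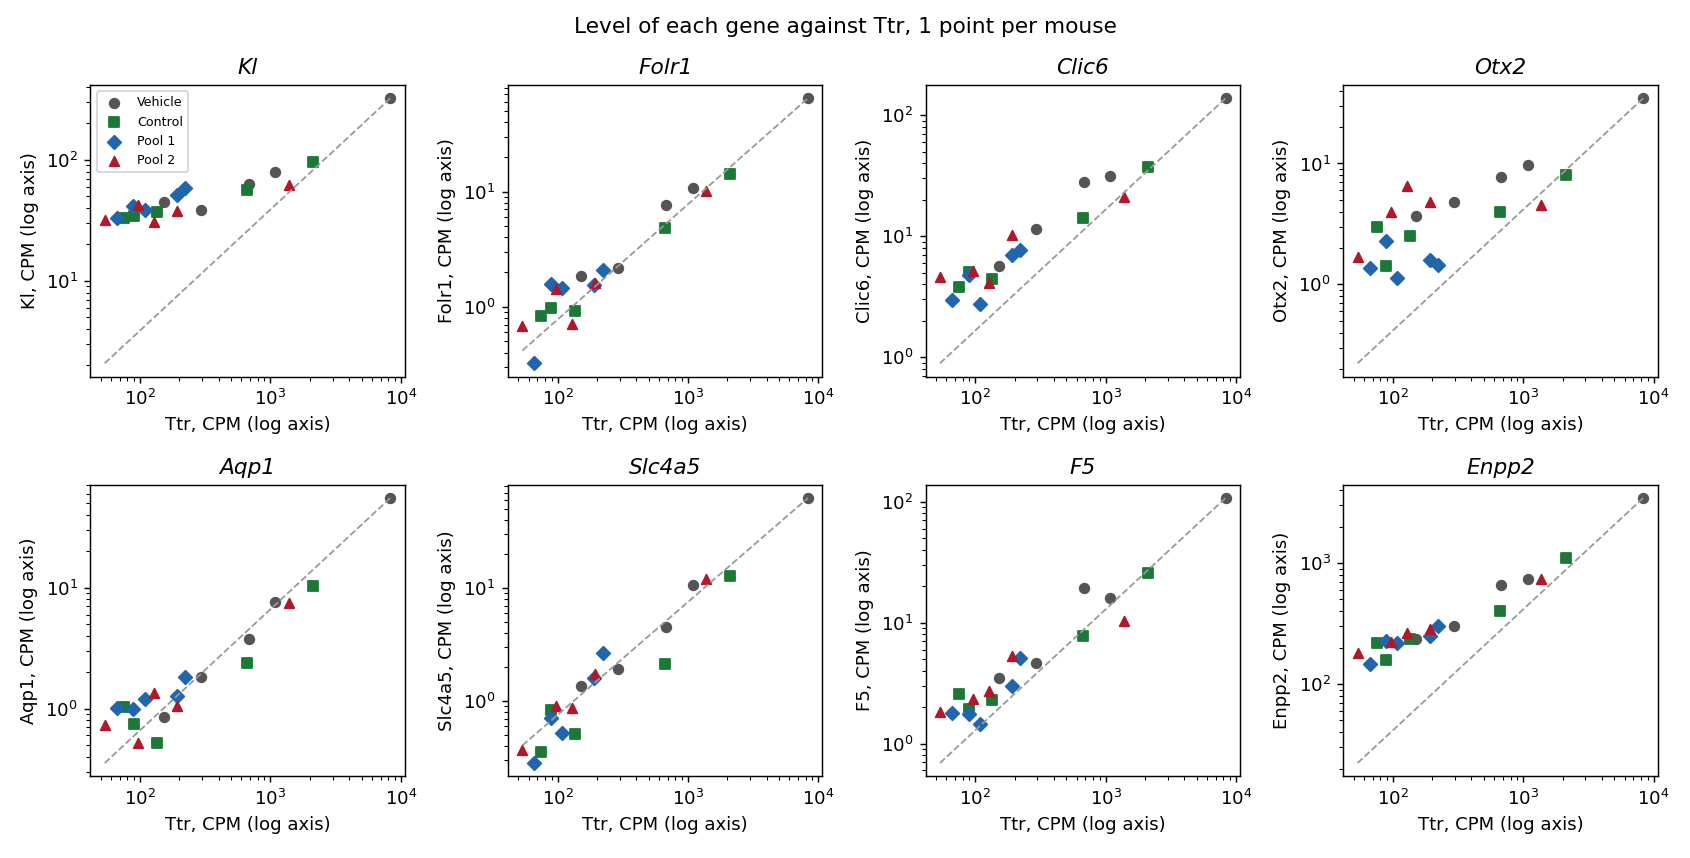
Level of each of the other 8 genes against Ttr (CPM, both axes logarithmic), 1 point per mouse, with the groups marked by colour and shape. The dashed line keeps the ratio seen in Vehicle replicate 4: Folr1, Slc4a5 and Aqp1 stay near it, whereas Kl, Enpp2 and Otx2 level off above it in mice with little Ttr.

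The genes most like the members were choroid plexus genes as well. Each gene averaging 10 or more normalized counts was compared with the mean log2 CPM of the 9 members, and the 10 highest correlations over the 20 libraries were those of Kcnj13, Steap1, Cldn2, Mfrp, Ace, Col8a1, Tmem72, Trpv4, Wdr86 and Sostdc1, with r from 0.978 to 0.958. All 10 were in a list of 31 further choroid plexus genes. That list was chosen with earlier results of these data known, so the overlap is a description and not independent support. Kcnj13, an inward rectifier potassium channel, had 68.7 CPM in Vehicle replicate 4, 15.2 CPM in Control replicate 3 and 8.42 CPM in Pool 2 replicate 3, against a median of 1.37 CPM. Cldn2, a claudin that forms cation-selective tight junctions, had 45.7, 7.92 and 6.17 CPM in these mice against a median of 1.09 CPM. Ace, which encodes angiotensin-converting enzyme, had 170, 38.9 and 28.6 CPM against a median of 13.5 CPM, and Trpv4, a cation channel, had 37.9, 7.83 and 7.21 CPM against a median of 1.94 CPM. Without Vehicle replicate 4 and Control replicate 3, r of the 10 genes lay between 0.894 for Sostdc1 and 0.949 for Kcnj13.

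**Figure D3:**
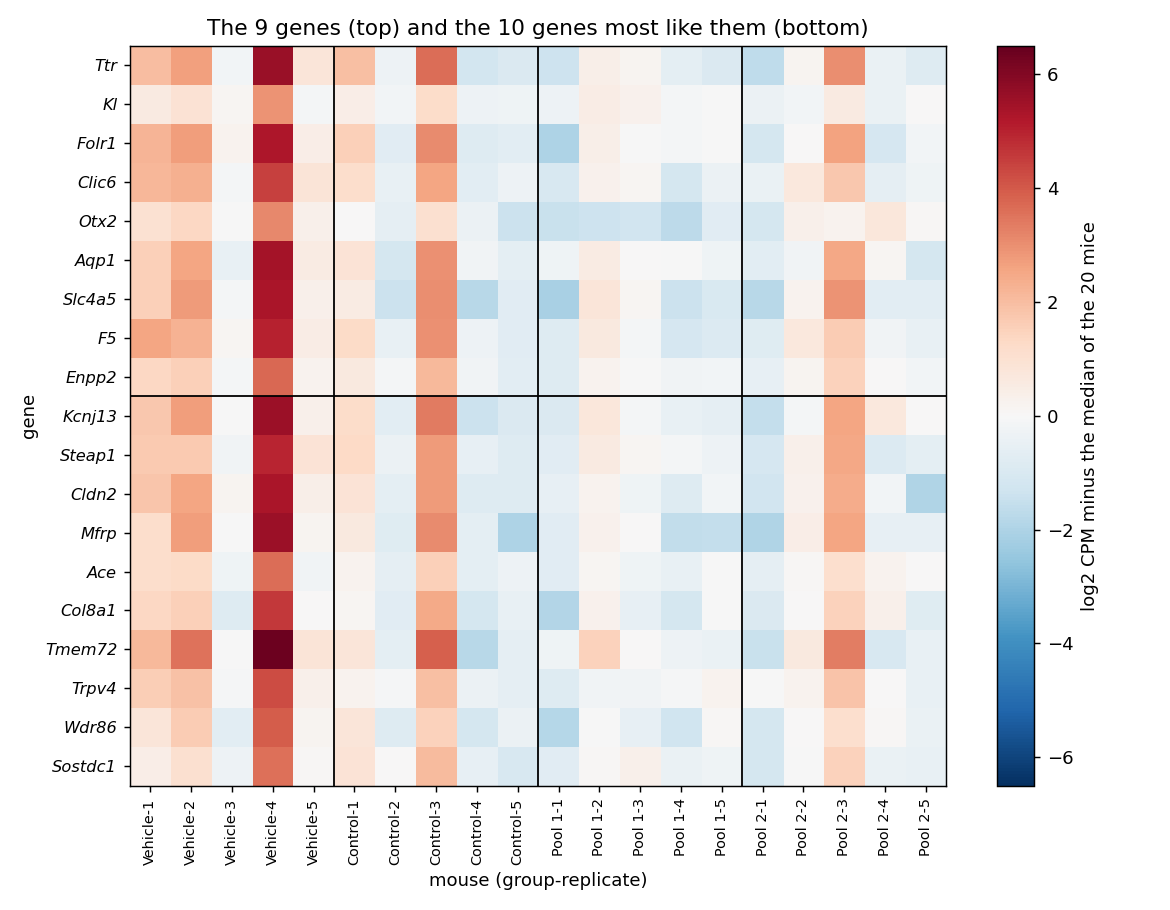
Log2 CPM minus the median of the 20 mice, for the 9 genes (above the line) and the 10 genes most like them (below it), with 1 column per mouse and group borders as vertical lines. Vehicle replicate 4 is the darkest red column throughout, followed by Control replicate 3, Vehicle replicate 2 and Pool 2 replicate 3.

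Of the 31 further genes, 30 were highest in Vehicle replicate 4, and 20 had r of at least 0.9 with the mean of the members, a level that 38 (0.228%) of the 16644 genes reached. Kcne2, a potassium channel subunit, was 49.5 times its median in Vehicle replicate 4, Tmem72, a transmembrane protein gene, 89.1 times and Prlr, the prolactin receptor, 22.9 times. Trpm3 and Car12, which had higher levels in the other mice, were closer to their medians. Trpm3, a cation channel gene, was at 413 CPM in Vehicle replicate 4, 3.86 times its median, and Car12, a carbonic anhydrase gene, was at 126 CPM, 3.72 times its median. Slc22a8, an organic anion transporter, did not follow: it had 16.1 CPM in Vehicle replicate 4, 1.05 times its median, and r was -0.09. Slc29a4, a monoamine transporter, had r of 0.28.

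Markers of other cell types shared this order of mice only in part or not at all. Summed over its list, the level in Vehicle replicate 4 ranked 4 of 20 for ependyma, 6 for medial habenula, 10 for thalamus, 11 for oligodendrocytes, 12 for CA1 pyramidal neurons, 15 for leptomeninges and for blood, and 17 for dentate granule cells and for brain endothelium. The ependyma list, for the ciliated cells that line the ventricles, had 52.2 CPM in Vehicle replicate 4, inside the Vehicle range of 21.4 to 66.2 CPM, and its highest mouse was Pool 1 replicate 5 at 73.8 CPM. Its 10 genes ranged from 14.2 to 42.1 CPM in sum in the Control mice, 12.3 to 73.8 CPM in the Pool 1 mice and 22.3 to 51.2 CPM in the Pool 2 mice. The hippocampal markers were present in every mouse: the CA1 list held 416 to 1100 CPM and the dentate granule cell list 236 to 718 CPM. The mean log2 CPM of the ependyma list had r of 0.536 (Spearman's rho 0.579) with that of the members, and that of the further choroid plexus list 0.988. Of the 10 ependyma genes 4 were highest in Vehicle replicate 4. The same r was 0.438 for oligodendrocytes and 0.277 for medial habenula. For the remaining lists it lay between -0.45 (brain endothelium) and 0.009 (thalamus). In bulk tissue, a smaller number of choroid plexus cells and less RNA per cell cannot be told apart.

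**Figure D4:**
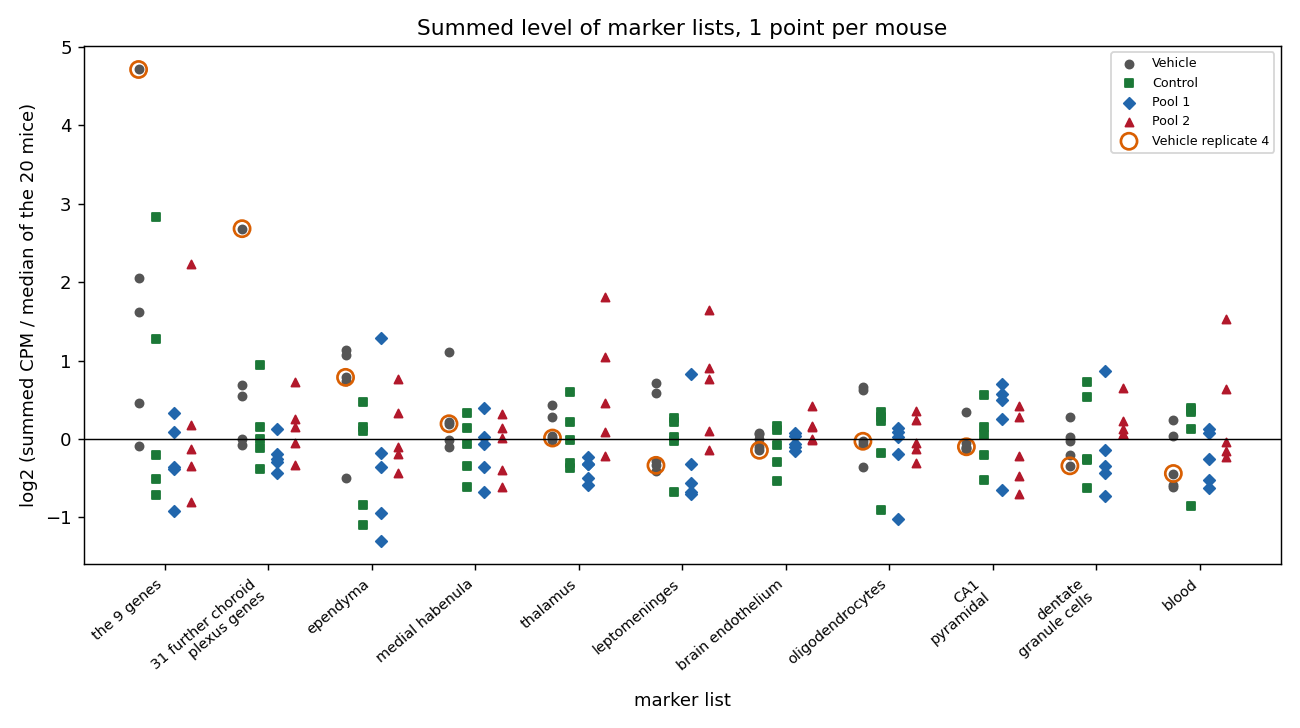
Summed CPM of each marker list on a log2 scale relative to the median of the 20 mice, 1 point per mouse, with Vehicle replicate 4 circled. That mouse is far above the others in both choroid plexus lists and within the range of the other mice in the remaining 9 lists.

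The groups were compared with edgeR's quasi-likelihood test over all 25190 genes. A gene passed where its log2 fold change was 0.3 or more in size with p below 0.05 before adjustment. Comparisons with Vehicle share the same 5 Vehicle mice, and those with Control the same 5 Control mice, so they are not independent of each other. In edgeR no member, and no gene at all, had an adjusted p-value under 0.05 in any comparison. At an unadjusted p-value under 0.05, all 9 members differed among the 4 groups, as did 7.86% of all genes. That count was 1 of 9 (Otx2) when Vehicle replicate 4 was left out, with 6.76% of all genes. That mouse was singled out because its levels were the highest for every member, so leaving it out was bound to lower the Vehicle means. Fits without it therefore describe the weight of this mouse and are no independent test. Leaving out the highest mouse of 3 groups together (Vehicle replicate 4, Control replicate 3 and Pool 2 replicate 3), a choice made after seeing the data and by the members' own levels, the count was 8 of 9, with 6.25% of all genes.

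Compared with Vehicle mice, Pool 1 mice had lower levels of every member. All 9 passed the threshold and all were lower, against 4.28% of all genes that passed as lower and 5.34% that passed in either direction. The log2 fold change was -3.96 ± 1.32 (SE, n = 5 and 5) for Ttr, -3.83 ± 1.33 for Slc4a5, -3.64 ± 1.17 for Folr1, -3.53 ± 1.00 for F5 and -1.30 ± 0.51 for Kl, and the median of the members was -3.45, beside -0.01 for all genes. The adjusted p-values in edgeR lay between 0.283 for Otx2 and 0.692 for Kl. Leaving out Vehicle replicate 4 gave a median of -2.01, and 3 members passed the threshold (Clic6, Otx2 and F5), with 3.25% of all genes passing as lower. Without the highest mouse of 3 groups, picked by the members' own levels, 8 members passed as lower (all but Kl), with 3.35% of all genes. Markers of some other cell types were lower beside the members, but no gene of the brain endothelium, CA1, dentate granule cell or blood lists passed. The median log2 fold changes of these lists were 0.002, 0.28, 0.03 and 0.07. Of the medial habenula list 4 of 6 genes passed as lower (Gpr151, Chrnb4, Chrna3 and Gng8), with a median log2 fold change of -0.82, and the same 4 passed without Vehicle replicate 4, with a median of -1.004. The list summed to 42.1 to 97.9 CPM in the Vehicle mice and 28.5 to 59.8 CPM in the Pool 1 mice. Of the ependyma list 2 of 10 passed as lower (Foxj1, a transcription factor of motile cilia, and Ak7, an adenylate kinase of cilia) and 0 in edgeR without Vehicle replicate 4, while the median was -0.67 with that mouse and -0.71 without it. Also lower, with and without it, were 2 of 9 thalamus genes (Lef1 and Zic1), and of the leptomeninges list 1 of 9 (Igf2) with it and 2 without it. The part of these markers in the members' differences was not tested.

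Otx2 passed with and without Vehicle replicate 4. Its log2 fold change in Pool 1 was -2.95 ± 0.60 (p-value 0.000130 before adjustment in edgeR) with Vehicle replicate 4 and -2.06 ± 0.43 (p-value 0.000150 before adjustment in edgeR) without it, and the adjusted p-values were 0.283 and 0.419. It was also the only member whose CPM did not overlap between Pool 1 and Vehicle mice, as in 0.639% of all genes, and the two-sided exact permutation test on log2 CPM gave p = 0.00794, the smallest value possible with 5 mice against 5. By the same exact permutation test the p-values of the other members in this comparison were 0.0159 for Folr1, 0.0238 for Ttr, Clic6 and F5, 0.0397 for Slc4a5 and Enpp2, 0.0873 for Aqp1 and 0.143 for Kl, so that Aqp1 and Kl passed in edgeR but had an exact p-value above 0.05. In DESeq2, an alternative tool, the adjusted p-value was 0.000795 for Otx2, 0.0328 for F5 and 0.0411 for Clic6, so that 3 members passed an adjusted p-value of 0.05, with 0.135% of all genes.

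Control mice, infused with sRNAs of control individuals, also had lower fitted levels than Vehicle mice for each member when all mice were used. Kl, Clic6 and Otx2 passed the threshold, 3 of 9 members, against 3.41% of all genes as lower and 5.1% in either direction. The log2 fold changes were -1.10 ± 0.51 for Kl, -1.74 ± 0.82 for Clic6 and -1.68 ± 0.56 for Otx2. In the exact permutation test none of the 3 had a p-value under 0.05: it was 0.302 for Kl, 0.190 for Clic6 and 0.0714 for Otx2. Without Vehicle replicate 4 none of the 9 members passed, with 4.46% of all genes passing in edgeR, and the median of the members went from -1.78 to -0.39. Ttr changed sign, from -1.78 ± 1.21 to 0.15 ± 1.08. The count was 9 of 9 without Control replicate 3 alone, 8 of 9 without Vehicle replicate 3 or 5 and 1 of 9 without most other mice. Shares of all genes passing are not given for these fits. Without the highest mouse of 3 groups, picked by the members' levels, the count was 8 of 9, against 3.04% of all genes as lower. Which single mice were kept therefore moved this count between 0 and 9. Ependyma markers were lower here too, with a median log2 fold change of -0.76 and 2 of 10 passing (Foxj1 and Ak7), or -0.71 and 1 of 10 (Ak7) without Vehicle replicate 4. Of the medial habenula list 1 of 6 passed as lower (Chrnb4), and 3 of 6 (Gpr151, Chrnb4 and Chrna3) without Vehicle replicate 4, the fit in which no member passed. The part of these lists was not tested.

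In Pool 2 mice compared with Vehicle mice, 7 of 9 members passed as lower (all but Ttr and Slc4a5), against 1.89% of all genes as lower and 4.69% in either direction. The log2 fold change was -2.51 ± 1.24 for Ttr, -2.74 ± 0.95 for F5 and -1.42 ± 0.51 for Kl, with a median of -2.35 for the members. None of the 7 had a p-value under 0.05 in the exact permutation test, in which they lay between 0.0714 (Kl and F5) and 0.167 (Aqp1). Without Vehicle replicate 4 none of the 9 passed, with 3.36% of all genes passing in edgeR, and the median was -0.59. The count was 9 without Vehicle replicate 3 or 5, Control replicate 3 or Pool 2 replicate 3, and 4 without any 1 of the other Pool 2 mice. Shares of all genes passing are not given for these fits. Without the highest mouse of 3 groups, picked by the members' own levels, 8 of 9 passed as lower, with 1.31% of all genes. Of the ependyma list 1 of 10 passed as lower (Ak7, list median -0.70). By contrast 4 of 9 thalamus genes, 2 of 5 blood genes and 1 of 9 leptomeninges genes passed as higher, against 2.8% of all. The part of these markers was not tested.

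**Figure D5:**
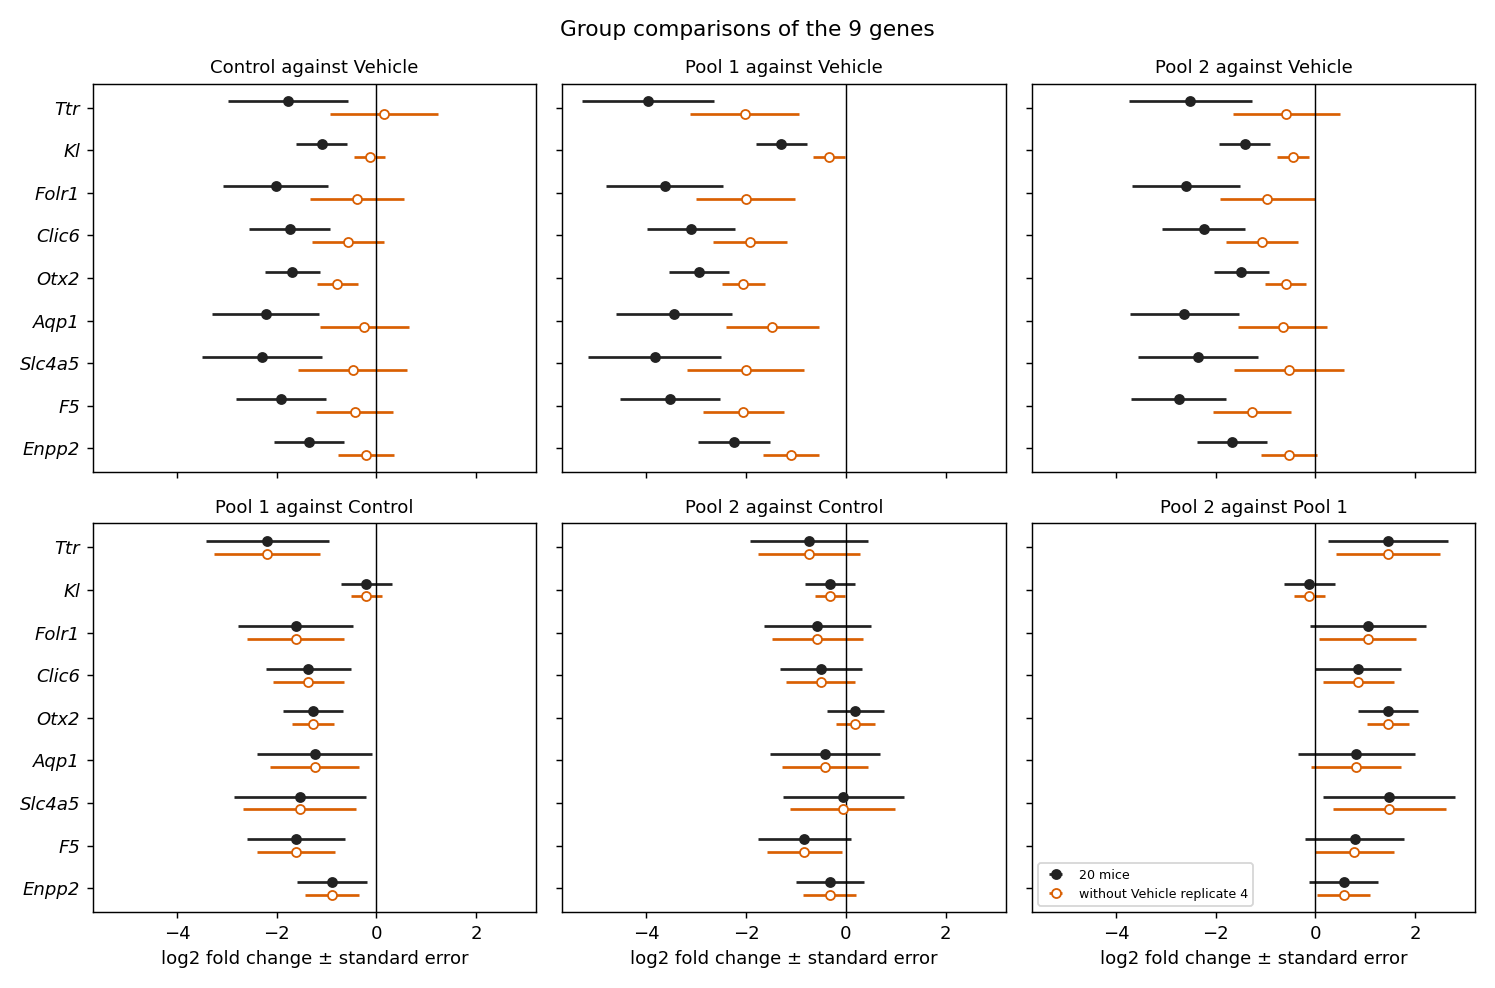
Log2 fold change of each gene in the 6 comparisons, with the standard error as bars, over all 20 mice (black) and without Vehicle replicate 4 (orange, open). The 3 comparisons with Vehicle move towards 0 without that mouse, which was singled out for its high levels of these genes. The 3 others keep their values.

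The comparisons that answer how sRNAs of patients differed from sRNAs of control individuals gave few calls. In Pool 1 compared with Control mice, 1 member passed in edgeR (Otx2, lower), against 1.99% of all genes as lower and 3.48% in either direction. Its log2 fold change was -1.27 ± 0.60, with an adjusted p-value of 0.917 in edgeR and an unadjusted one of 0.0397 in the exact permutation test, and it no longer passed in 13 of the 20 fits that left out 1 library. The other members were lower by log2 fold changes of -0.20 (Kl) to -2.19 ± 1.23 (Ttr) without passing in edgeR, and 3 of them (Kl, Aqp1 and Slc4a5) changed sign without Control replicate 3. In DESeq2 2 members passed as lower (Ttr and Otx2), against 1.59% of all genes. For Ttr the p-value in DESeq2 was 0.0388 before and 0.834 after adjustment, and 0.341 in the exact permutation test. In Pool 2 compared with Control mice none of the 9 members passed in edgeR, at 6.22% of all genes, and none was at an unadjusted p-value under 0.05 in edgeR or DESeq2. Their log2 fold changes lay between -0.83 ± 0.94 for F5 and 0.19 ± 0.56 for Otx2.

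Between the pools, 1 of 9 members passed. Otx2 was higher in Pool 2 than in Pool 1 by a log2 fold change of 1.46 ± 0.60, with an adjusted p-value of 0.500 in edgeR and an unadjusted one of 0.0159 in the exact permutation test, and did not pass without Pool 1 replicate 4 or without Pool 2 replicate 4. This stands against 5.66% of all genes passing as higher and 6.82% in either direction. Ttr was at 1.45 ± 1.20 without passing, and at -0.20 without Pool 2 replicate 3. Beside Otx2, genes of 5 lists of other cell types passed as higher, and the thalamus list had more of them than any other list. The thalamus list summed to 585 CPM in Pool 2 replicate 4 and 344 CPM in Pool 2 replicate 2, the 2 highest of the 20 mice, and these 2 mice also had the highest Otx2 of the Pool 2 group. The list summed to 144 to 585 CPM in the Pool 2 mice, 111 to 142 CPM in the Pool 1 mice, 129 to 253 CPM in the Control mice and 165 to 225 CPM in the Vehicle mice, and 8 of its 9 genes passed as higher in Pool 2 than in Pool 1. Of the leptomeninges list 4 of 9 genes passed as higher (Igf2, Col1a1, Col1a2 and Fmod; median 1.01), and its sum, 49.4 to 170 CPM in the Pool 2 mice and 33.5 to 96.6 CPM in the Pool 1 mice, was again highest in Pool 2 replicate 4. Of the blood list 3 of 5 passed as higher (Hba-a1, Hbb-bs and Hbb-bt), with sums of 53.6 to 182 CPM in the Pool 2 mice, highest in Pool 2 replicate 1, and 40.8 to 68.6 CPM in the Pool 1 mice. Single genes of the medial habenula (Chrnb4) and brain endothelium (Pecam1) lists passed as higher too. The part of these markers in the Otx2 difference was not tested.

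The 31 further choroid plexus genes gave counts of the same kind. In Pool 1 compared with Vehicle mice 29 passed as lower (4.28% of all genes), and 6 without Vehicle replicate 4 (3.25% of all genes). In Control compared with Vehicle mice 11 passed as lower (3.41% of all genes), and 0 without it in edgeR (2.81% of all genes). In Pool 2 compared with Vehicle mice 21 passed as lower (1.89% of all genes). Without that mouse 0 passed as lower (1.26% of all genes). In that fit 1 (Igfbp2, an insulin-like growth factor binding protein) passed as higher (2.1% of all genes). In Pool 1 compared with Control mice 0 of the 31 passed in edgeR with all mice (3.48% of all genes). Without Vehicle replicate 4, 2 passed as lower (2.08% of all genes). The only further gene that passed in Pool 2 compared with Control or Pool 1 mice over all mice was Slc22a8. It was higher and did not follow the members. Of all genes, 5.2% and 5.66% passed as higher in these 2 comparisons.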

How the data were processed

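RNA of 20 mouse hippocampi was sequenced in stranded, poly(A)-selected libraries. The authors aligned single-end reads to GRCm38/mm10 with STAR, counted reads per gene with the GENCODE M20 annotation, discarded genes with a total under 10 across the libraries, and deposited raw counts, without normalization. Which strand setting the counts used is not given in the sources used here. Gene positions are those of the table, and exon lengths and overlaps are from GENCODE M21.

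Samples were grouped by their labels. TMM normalization was followed by edgeR 4.0.16 in R 4.3.3 (glmQLFit and glmQLFTest, robust), in 1 fit of 4 groups over 25190 genes with Benjamini-Hochberg adjustment. Standard errors were obtained from the fold change and its F statistic. CPM used the TMM factors, and log2 CPM a prior count of 2. Exact permutation tests were two-sided. Replicates were separate libraries, as chi-square per degree of freedom between 2 of a group was 7.59 to 60.8 where sampling alone gives about 1, and nothing beyond the labels says how mice were housed or processed together. The floor of 3 counts covers counting error only. The main edgeR fit and DESeq2 were tested on simulated counts, for Pool 1 compared with Vehicle mice. Those counts held no single high mouse, and the other alternatives were not tested in this way.

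The 9 members, the marker lists, the threshold, the robust estimate, the searched promoter core and the alternatives were chosen with earlier results of these data known. Named genes are the members, the 10 genes most like them, genes of the further choroid plexus list that average 10 or more normalized counts, and genes needed for a list's range. Ecrg4 and Cltrn were matched to the listed older names through RefSeq. The alternatives were DESeq2 1.42.0, its size factors, filters on low counts, fits of only the groups compared, a default estimate of the spread, the replicate number as a block, leaving out each library, and 18 libraries without Vehicle replicate 4 and Pool 2 replicate 1. A fit of 17 libraries was added after seeing the data. Calls of single genes of the oligodendrocyte list are not reported here.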

Additional observations from a re-analysis of the deposited data

Results flagged for a closer look

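Within a group of 5 mice, a single mouse stood apart from the other 4 by Dixon's criterion (critical value 0.71) in 18 of the 36 sets of 1 gene in 1 group, on CPM. Chance gives about 1 in 20 such sets where values are normally distributed. CPM of these genes was skewed by a few high mice, so 18 of 36 cannot be set against that rate. The sets are also not independent, since the 9 genes come from the same libraries.

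Vehicle replicate 4 was the mouse that stood apart in the Vehicle group for all 9 genes, with 8330 CPM for Ttr, 324 for Kl, 64.7 for Folr1, 138 for Clic6, 34.7 for Otx2, 55.2 for Aqp1, 63.0 for Slc4a5, 107 for F5 and 3452 CPM for Enpp2. Control replicate 3 stood apart for 4 genes, with 10.4 CPM for Aqp1, 12.8 for Slc4a5, 25.7 for F5 and 1099 CPM for Enpp2. Pool 2 replicate 3 stood apart for 5 genes, with 1379 CPM for Ttr, 10.04 for Folr1, 7.50 for Aqp1, 12.0 for Slc4a5 and 736 CPM for Enpp2. No Pool 1 mouse stood apart on CPM. On log2 CPM only 1 of the 36 sets did, Folr1 in Pool 1, where replicate 1 was low.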

How the results depend on the processing

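The number of the 9 members past the threshold is given here for Control/Vehicle, Pool 1/Control, Pool 1/Vehicle, Pool 2/Control, Pool 2/Pool 1, Pool 2/Vehicle and any difference among the groups, in that order. It was 3, 1, 9, 0, 1, 7 and 9 as reported. It was 8, 2, 9, 0, 1, 9 and 9 with DESeq2 and also with the default estimate of the spread, 2, 0, 9, 0, 1, 7 and 9 with DESeq2's size factors, and 5, 1, 9, 0, 1, 8 and 9 with either filter on low counts. Fits of only the groups compared gave 0, 1, 8, 0, 1 and 2. Over 18 libraries it was 1, 1, 3, 0, 1, 0 and 1. Over 17 libraries, without the highest mouse of the Vehicle, Control and Pool 2 groups, it was 8, 1, 8, 0, 1, 8 and 8. This last set was chosen after seeing the data and by the members' own levels. In the same order, the shares of all genes passing were 4.31%, 2.64%, 4.39%, 5.1%, 5.68%, 3.85% and 7.99% with DESeq2. Over 17 libraries they were 4.99%, 3.42%, 4.22%, 5.73%, 7.06%, 3.6% and 6.25%. Leaving out 1 library at a time gave 0 to 9, 0 to 1, 3 to 9, 0 to 0, 0 to 1, 0 to 9 and 1 to 9. For the settings other than DESeq2 and 17 libraries, shares of all genes are not given in this paragraph. The cause of the shifts in the counts was not tested.

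Replicate numbers did not pair the mice: deviations of same-numbered mice correlated between -0.321 and 0.277 (median 0.028), 10 of 30 pairs were over 0.1, and 1 of 20 libraries correlated best with its own number. With the replicate number as a block, the counts were 0 in Pool 1/Control, 1 in Control/Vehicle, 8 in Pool 1/Vehicle, 9 in Pool 2/Vehicle and 3 for any difference. Of all 25190 genes, 759, 1053, 1189, 937 and 1552 passed in these, in the same order.

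Of 1566 recomputed log2 fold changes of members (54 results), 32 changed sign, 103 lost and 58 gained the threshold. Over 18 libraries Slc4a5 in Pool 2/Control was 0.23 and Ttr in Control/Vehicle 0.15. Over 17 libraries Kl was 0.16, Aqp1 0.12 and Slc4a5 0.25 in Pool 1/Control, Slc4a5 was 0.043 in Pool 2/Control, and in Pool 2/Pool 1 Ttr was -0.20, Folr1 -0.34, Aqp1 -0.46 and Slc4a5 -0.21. Leaving out 1 library, Pool 1/Control ranged from -0.33 to 0.16 for Kl, -1.51 to 0.12 for Aqp1 and -2.11 to 0.25 for Slc4a5. Pool 2/Control ranged from -2.38 to 0.62 for Ttr, -0.52 to 0.036 for Kl, -1.95 to 0.62 for Folr1, -1.09 to 0.41 for Clic6, -0.016 to 0.66 for Otx2, -1.70 to 0.94 for Aqp1, -1.74 to 1.74 for Slc4a5, -1.39 to 0.31 for F5 and -0.82 to 0.42 for Enpp2. Ttr in Control/Vehicle ranged from -3.13 to 0.15. Pool 2/Pool 1 ranged from -0.20 to 1.73 for Ttr, -0.33 to 1.30 for Folr1, -0.46 to 1.08 for Aqp1 and -0.20 to 2.06 for Slc4a5. The libraries whose absence changed a sign were Control replicate 3 or Pool 2 replicate 3 in most cases, and Vehicle replicate 4 for Ttr in Control/Vehicle. Otx2 in Pool 2/Control changed sign without Control replicate 5 or Pool 2 replicate 4, and Slc4a5 there also without Pool 2 replicate 1, 2, 4 or 5.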
